A study of Mus musculus with 14 samples.

Results

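The genes described here encode parts and regulators of the motile cilium, and 74 of the 46983 genes in each table belong to them. They were chosen by symbol: axonemal dyneins (Dnah, Dnaic and Dnali1), Cfap, Rsph, Drc, Spag and Tekt genes with a number, plus Foxj1, Rfx2, Rfx3, Mcidas, Ccdc39, Ccdc40, Ccdc153, Tmem212 and Dynlrb2. The rule itself uses no expression value. The samples were bulk RNA from differentiated neural stem cell cultures (3 libraries labelled Qk-KO and 3 labelled WT) and from mouse corpus callosum (4 labelled Qk-KO and 4 labelled WT). The sample titles name the cultures oligodendrocyte. Qk encodes quaking, an RNA-binding protein of glia. Callosum donors labelled Qk-KO were Plp-CreERT2;QKLoxP/LoxP and those labelled WT were Plp-CreERT2;QKLoxP/+, so the controls also carry the Cre transgene and 1 floxed allele. All were FvB/C57BL6 hybrid mice that received tamoxifen at 8 weeks of age and were sampled 4 days later. The Plp promoter limits the inducible recombinase largely to oligodendrocyte lineage cells. The cultures were at passages 7, 12 and 13, 1 of each passage under each label, in Neurobasal medium with 100 ng/ml IGF-1, 50 ng/ml T3, B-27 and GlutaMAX-I at 2 mM. All 3 Qk-KO cultures are described as 40HT and all 3 WT cultures as EtOH. Genotype and treatment therefore cannot be told apart there.

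A motile cilium is built on an axoneme, a ring of doublet microtubules around a central pair. Outer and inner dynein arms drive sliding between doublets, radial spokes and the nexin-dynein regulatory complex control it, and tektins and other inner proteins stiffen the doublets. In the brain, ependymal cells lining the ventricles carry tufts of such cilia under the control of Foxj1 and Rfx factors, while astrocytes and neural stem cells typically carry a solitary primary cilium without dynein arms.

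Depth was 38325833 to 48912999 fitted counts per culture library and 15048646 to 27666519 per callosum library. The library columns hold model-fitted means, so each gene has 1 level per genotype, given here as fitted CPM (counts scaled to a common library total), and whether single libraries of both genotypes overlap could not be seen. Log2 changes are Qk-KO minus WT, with the standard error of the authors' deposited table, and a call means an adjusted p under 0.05 there. Total Qk RNA was not lower under the Qk-KO label. It was called higher in culture (log2 0.66 ± 0.14, adjusted p = 4.19e-05, authors' deposited table). In callosum it was not called (0.32 ± 0.12, adjusted p = 0.162, authors' deposited table). The fitted level of Qk was 3277 CPM in Qk-KO cultures, against 1972 CPM in WT cultures, and 907 CPM in Qk-KO callosum, against 713 CPM in WT callosum. Since these reads span the whole gene, they test neither the deletion nor the sample labels.

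In culture, part of the motile cilia genes fell under the Qk-KO label, Foxj1, dynein, spoke and tektin genes among them. Of the 74, 56 were tested, 20 fell and 0 rose at an adjusted p under 0.05 in the authors' deposited table, while 27 had an unadjusted p under 0.05. The share that fell was 35.7%, beside 15.2% of all 17503 genes tested, of which 13.3% rose, 28.6% were called either way and 37.4% had an unadjusted p under 0.05. Scaling to fitted library totals in place of size factors turned the split of all genes from 2336 higher and 2667 lower to 3054 higher and 2296 lower, and that of the members to 1 higher (Dnah9) and 19 lower (without Rsph4a). The median log2 change of the 56 was -0.72, beside 0.01 for all genes tested, and 47 of the 56 values were below 0. The log2 changes of the 20 lay between -2.47 and -0.72, and 17 of them fell at least 2-fold. A further 11 members had reads but too few for a test, and 7 had no reads (Dnah12, Dnah14, Spag11a, Spag11b, Spag17os, Tekt3 and Tmem212). In callosum, 66 members were tested and 0 were called (DESeq2, authors' deposited table), 2 of them with an unadjusted p under 0.05. There 2.32% of all 19935 genes tested were called (2.09% higher and 0.231% lower), and 8.08% had an unadjusted p under 0.05. The median of the 66 was -0.02, beside -0.01 for all genes tested, with 35 values below 0 and 31 above. In bulk RNA, fewer cells that express these genes and less of their RNA per cell cannot be told apart.

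**Figure D1:**
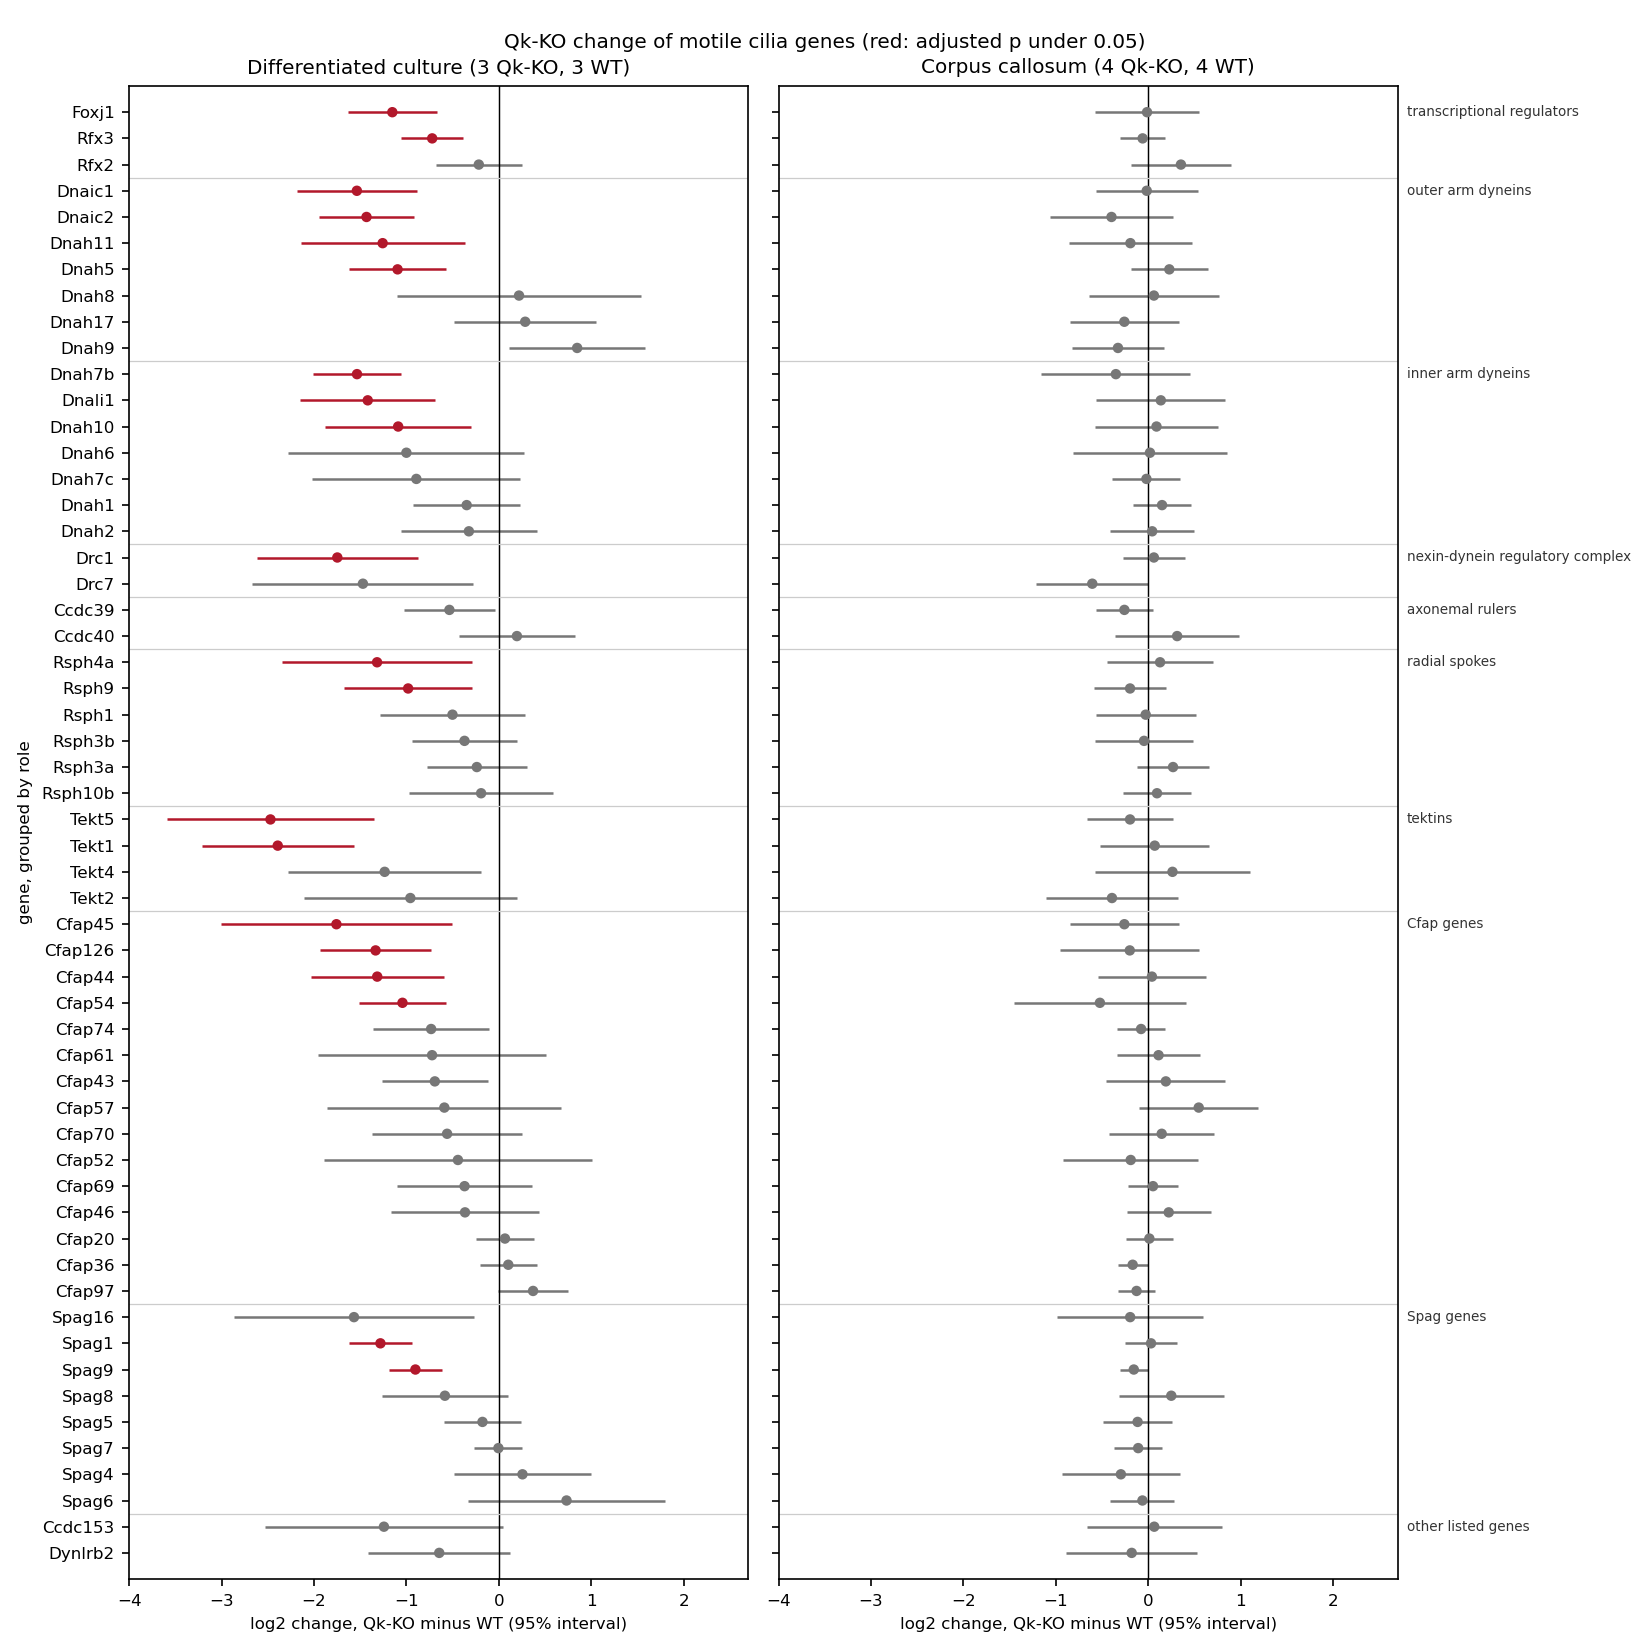
Log2 change (Qk-KO minus WT, x axis) of the 56 motile cilia genes tested in both systems, with 95% intervals from the deposited standard errors, in culture (left) and callosum (right), grouped by role down the page. Red marks an adjusted p under 0.05. The 20 red genes are all lower and all in culture, and the callosum values scatter around 0.

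Among the transcriptional regulators, both Foxj1 and Rfx3 fell in culture. Foxj1 (ENSMUSG00000034227, chromosome 11, 116330704 to 116335399, GRCm38), the forkhead factor that switches on motile cilia genes, had 39.3 CPM in Qk-KO cultures, against 82.8 CPM in WT cultures. Its log2 change was -1.15 ± 0.25 (SE, adjusted p = 2.95e-05, authors' deposited table), a 2.22-fold higher level in WT. Rfx3 (chromosome 19, 27761721 to 28011166), a winged-helix factor that acts with Foxj1, had 60.5 CPM in Qk-KO cultures, against 94.5 CPM in WT cultures. It changed by -0.72 ± 0.17 (adjusted p = 1.90e-04, authors' deposited table). Rfx2, its close relative, had 7.23 CPM in Qk-KO cultures, against 7.96 CPM in WT cultures, and did not pass (-0.22 ± 0.24, authors' deposited table). Mcidas, which starts the multiciliated cell programme, had a mean normalized count of 2.96 in culture, below the lowest tested mean of 8.52. In callosum Foxj1 had 12.9 CPM in Qk-KO tissue, against 12.8 CPM in WT tissue, with a 95% interval of the log2 change from -0.58 to 0.55. The Rfx3 interval in callosum ran from -0.31 to 0.19.

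The promoters of the genes that fell were read for the DNA words these factors recognise, and 4 that hold an RFX half-site are shown, 1 each from the tektins, outer arm dyneins, regulatory complex and regulators. A further RefSeq promoter of Tekt1 (chr11:72361247-72361546) held no half-site and is not shown. Each is a RefSeq promoter (GRCm38.p6), 250 bases before to 50 after the start, in the direction of the gene, with GTTGCC or its reverse complement GGCAAC in capitals.
Tekt1, chr11:72361833-72362132, minus strand: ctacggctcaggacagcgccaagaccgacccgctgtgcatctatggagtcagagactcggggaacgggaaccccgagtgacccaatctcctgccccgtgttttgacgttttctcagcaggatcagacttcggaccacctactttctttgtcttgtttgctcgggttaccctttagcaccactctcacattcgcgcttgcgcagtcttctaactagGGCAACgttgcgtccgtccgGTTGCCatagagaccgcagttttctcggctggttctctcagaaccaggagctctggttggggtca
Dnaic2, chr11:114727169-114727468, plus strand: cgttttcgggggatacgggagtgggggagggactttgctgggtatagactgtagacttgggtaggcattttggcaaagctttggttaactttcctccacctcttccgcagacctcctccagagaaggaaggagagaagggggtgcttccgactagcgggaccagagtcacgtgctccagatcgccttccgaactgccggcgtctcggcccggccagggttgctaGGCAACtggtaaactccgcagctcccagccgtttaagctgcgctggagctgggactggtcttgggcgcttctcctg
Drc1, chr5:30281143-30281442, plus strand: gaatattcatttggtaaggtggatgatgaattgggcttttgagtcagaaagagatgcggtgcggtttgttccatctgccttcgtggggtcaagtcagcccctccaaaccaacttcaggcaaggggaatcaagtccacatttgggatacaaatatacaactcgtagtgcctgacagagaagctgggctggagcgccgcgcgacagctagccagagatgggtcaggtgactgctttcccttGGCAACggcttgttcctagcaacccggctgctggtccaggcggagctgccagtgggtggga
Rfx3, chr19:28011117-28011416, minus strand: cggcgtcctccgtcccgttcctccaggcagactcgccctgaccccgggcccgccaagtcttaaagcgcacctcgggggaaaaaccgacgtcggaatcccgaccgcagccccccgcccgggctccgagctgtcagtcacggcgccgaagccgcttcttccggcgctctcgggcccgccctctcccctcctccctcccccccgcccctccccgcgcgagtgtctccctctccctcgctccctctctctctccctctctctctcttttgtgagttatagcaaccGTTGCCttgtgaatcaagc

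In Tekt1 the words begin 35 and 15 bases before the start and face opposite ways. The word of Dnaic2 begins 26 bases before the start and that of Drc1 11 bases before it, while that of Rfx3 lies 31 bases past it. Of the 74 genes, 58 had a RefSeq promoter, with 66 promoters in all. The half-site, searched on both strands, was in 24 of the 66 (36.4%), beside 12.5% of all 32851 promoters in the table. Of the 20 genes that fell in culture, 16 had a promoter in the table and 7 of these held the half-site in at least 1 promoter (43.8%). That is near the share of all 58 members with a promoter, 22 of which held it (37.9%). Of all genes in the table, 14.1% did. The 7 that fell and held it are the 4 shown, Cfap44 and Dnah10, with words that begin 19 and 20 bases before the start among others, and Dnah7b, 163 bases before it. Foxj1, Spag1, Cfap54 and Rsph4a had no promoter in the table. A full palindromic X-box (GTTNCC and GGNAAC with 1 to 3 bases between) was in 0 of the 66, beside 0.776% of all promoters, and the half-site was searched only after that. Pairs with a mismatched base, such as gttgctaGGCAAC in the Dnaic2 promoter above, were not counted, so X-boxes of a looser form may be present. The forkhead core TGTTTAC was in 4 of the 66 (6.06%), beside 3.65% of all promoters, and in 0 promoters of the 16 genes that fell. Base composition was not matched, and a word match shows the letters only.

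Outer arm dyneins gave 4 falls among 7 tested genes. Beside this and the role counts that follow, 15.2% of all genes tested in culture fell. The intermediate chains Dnaic1 and Dnaic2, which anchor the arm, both fell. Dnaic1 had 1.38 CPM in Qk-KO cultures, against 3.78 CPM in WT cultures (log2 -1.54 ± 0.33, adjusted p = 3.57e-05, authors' deposited table). Dnaic2 had 4.93 CPM in Qk-KO cultures, against 12.6 CPM in WT cultures (log2 -1.43 ± 0.26, adjusted p = 6.55e-07, authors' deposited table). Of the heavy chain motors, Dnah5 had 3.01 CPM in Qk-KO cultures, against 6.10 CPM in WT cultures, and fell by 1.10 ± 0.27 on the log2 scale (adjusted p = 3.42e-04, authors' deposited table). Dnah11 had 0.386 CPM in Qk-KO cultures, against 0.874 CPM in WT cultures, and fell by 1.26 ± 0.45 there (adjusted p = 0.0227). The partner heavy chain Dnah9 stood on the other side, with 5.29 CPM in Qk-KO cultures, against 2.79 CPM in WT cultures. Its change of 0.85 ± 0.37 was not called (adjusted p = 0.0749, authors' deposited table). Dnah8 and Dnah17, heavy chains best known from sperm, had 0.22 ± 0.68 and 0.29 ± 0.39 there, not called.

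Of 7 inner arm genes tested, 3 fell in culture and all 7 values were below 0. The heavy chain Dnah7b had 5.49 CPM in Qk-KO cultures, against 15.1 CPM in WT cultures (log2 -1.54 ± 0.24, adjusted p = 5.89e-09, authors' deposited table). Dnah7a, Dnah7b and Dnah7c are near-identical copies on chromosome 1, so the split of reads among them is uncertain. The light intermediate chain Dnali1 had 0.982 CPM in Qk-KO cultures, against 2.49 CPM in WT cultures, a change of -1.42 ± 0.37 (adjusted p = 0.00102, authors' deposited table). Dnah10 had 1.16 CPM in Qk-KO cultures, against 2.34 CPM in WT cultures, and fell by 1.09 ± 0.40 on the log2 scale (adjusted p = 0.0282, authors' deposited table). Dnah1, Dnah2, Dnah6 and Dnah7c were not called, with Dnah7c at -0.89 ± 0.57 and Dnah2 at -0.32 ± 0.38 in the authors' deposited table. Drc1, a scaffold of the nexin-dynein regulatory complex, had 1.14 CPM in Qk-KO cultures, against 3.62 CPM in WT cultures, and fell by 1.75 ± 0.45 on the log2 scale (adjusted p = 6.65e-04, authors' deposited table). Drc7, of the same complex, was not called (-1.47 ± 0.61, adjusted p = 0.0546, authors' deposited table).

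The tektins, filament proteins of the doublet wall, had the lowest values. Tekt1 (chromosome 11, 72344722 to 72362442) had 0.345 CPM in Qk-KO cultures, against 1.72 CPM in WT cultures (log2 -2.39 ± 0.42, adjusted p = 2.12e-07, authors' deposited table). Tekt5 had 0.130 CPM in Qk-KO cultures, against 0.685 CPM in WT cultures (log2 -2.47 ± 0.57, adjusted p = 1.53e-04, authors' deposited table). The WT levels were 5.25-fold and 5.55-fold higher than the Qk-KO levels. Tekt4 (-1.24 ± 0.53, adjusted p = 0.0662) and Tekt2 (-0.96 ± 0.59, adjusted p = 0.232) were not called in the authors' deposited table. Tekt1 and Tekt5 had mean normalized counts of 47.3 and 19.7, so their levels rest on few reads.

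Radial spoke genes gave 2 falls among 6 tested, both in the spoke head. Rsph4a had 0.414 CPM in Qk-KO cultures, against 0.979 CPM in WT cultures (log2 -1.32 ± 0.52, adjusted p = 0.0433, authors' deposited table). Rsph9 had 1.17 CPM in Qk-KO cultures, against 2.20 CPM in WT cultures (log2 -0.98 ± 0.35, adjusted p = 0.0225, authors' deposited table). In the authors' deposited table Rsph1, also of the head, had -0.50 ± 0.40, and the stalk genes Rsph3a and Rsph3b, a near-identical pair, had -0.24 ± 0.28 and -0.37 ± 0.29. All 3 missed the threshold. Ccdc39 and Ccdc40, partners that set the axonemal repeat, were not called and had values of opposite sign. Ccdc39 had 3.71 CPM in Qk-KO cultures, against 5.10 CPM in WT cultures (log2 -0.54 ± 0.25, adjusted p = 0.0943, authors' deposited table). Ccdc40 had 4.76 CPM in Qk-KO cultures, against 3.94 CPM in WT cultures (0.20 ± 0.32, authors' deposited table).

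Cfap genes, named only for an association with cilia and flagella, gave 4 falls among 15 tested. Cfap45, a protein inside the doublet, had 0.141 CPM in Qk-KO cultures, against 0.451 CPM in WT cultures (log2 -1.76 ± 0.64, adjusted p = 0.0245, authors' deposited table). Cfap126, needed for basal body positioning, had 0.971 CPM in Qk-KO cultures, against 2.32 CPM in WT cultures (log2 -1.33 ± 0.31, adjusted p = 1.35e-04, authors' deposited table). Cfap44, which tethers an inner dynein, had 1.24 CPM in Qk-KO cultures, against 2.92 CPM in WT cultures (log2 -1.32 ± 0.37, adjusted p = 0.00221, authors' deposited table). Its partner Cfap43 had -0.69 ± 0.29 and an adjusted p of 0.0585 there. Cfap54, of the central pair, had 2.51 CPM in Qk-KO cultures, against 4.89 CPM in WT cultures, and fell by 1.04 ± 0.24 on the log2 scale (adjusted p = 1.42e-04, authors' deposited table). The 3 most abundant Cfap genes were not called and had values above 0 in culture. Cfap36 stood at 0.10 ± 0.16, Cfap97 at 0.37 ± 0.19 and Cfap20, of the doublet junction, at 0.07 ± 0.16 in the authors' deposited table.

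Spag symbols gather unrelated proteins, and 2 of 8 tested fell. Spag1, a cytoplasmic factor for assembling dynein arms, had 15.5 CPM in Qk-KO cultures, against 35.8 CPM in WT cultures. Its change of -1.28 ± 0.18 had the smallest adjusted p of all members (1.06e-11, authors' deposited table). Spag9, a scaffold of kinase signalling and vesicle transport rather than an axonemal part, had 230.6 CPM in Qk-KO cultures, against 408.8 CPM in WT cultures (log2 -0.90 ± 0.15, adjusted p = 2.00e-08, authors' deposited table). Spag16, of the central pair, was not called (-1.57 ± 0.66, adjusted p = 0.0596, authors' deposited table), nor was the mitotic spindle gene Spag5 (-0.18 ± 0.21). Of the listed ependymal genes, Ccdc153 had 0.221 CPM in Qk-KO cultures, against 0.496 CPM in WT cultures (-1.24 ± 0.65, adjusted p = 0.149, authors' deposited table). The dynein light chain Dynlrb2 had -0.65 ± 0.39 there, not called.

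**Figure D2:**
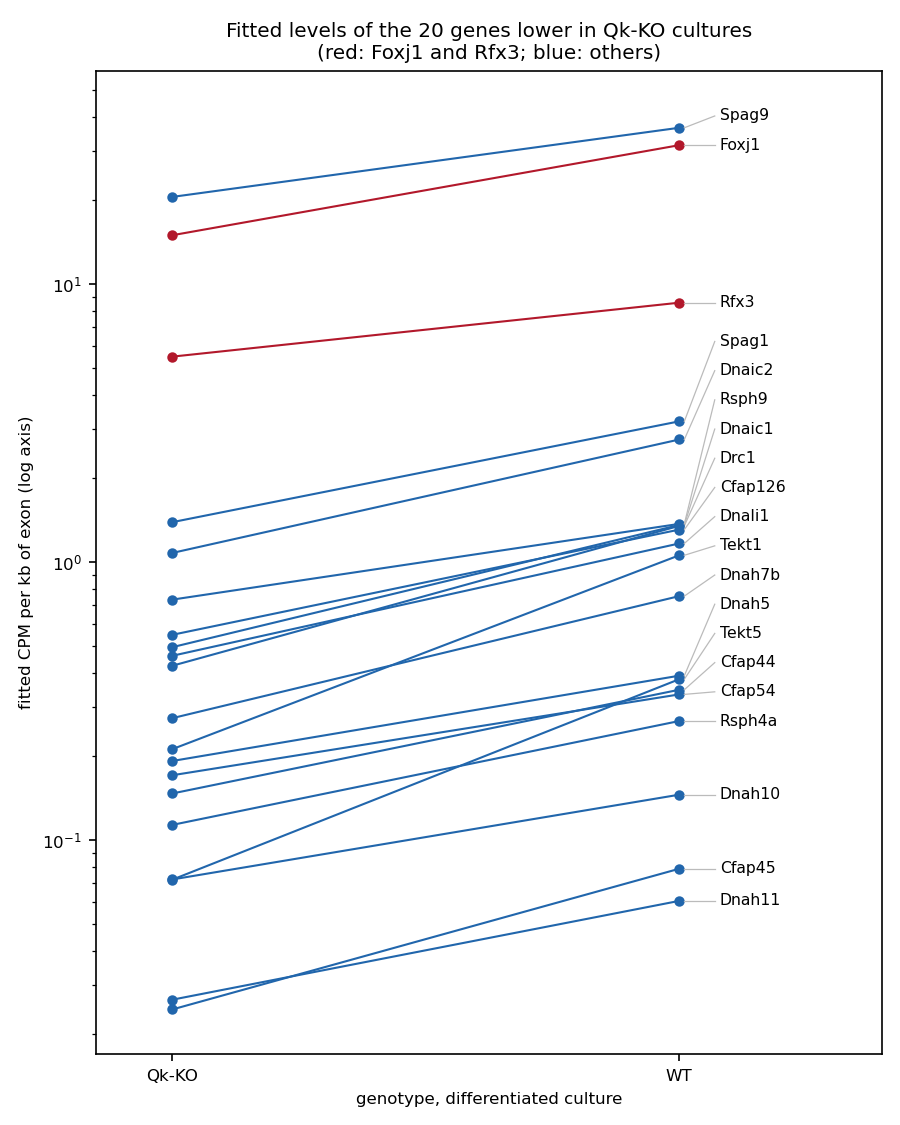
Fitted CPM per kilobase of exon (y axis, log scale) in Qk-KO (left) and WT (right) cultures for the 20 genes that fell, 1 line per gene, each point the model's fitted level of a genotype without replicate spread. Foxj1 and Rfx3 are in red. Foxj1 lies far above the dynein, spoke and tektin genes in both genotypes.

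Levels were compared between genes per kilobase of exon, within 1 system. In culture Foxj1 stood high and axonemal genes low. Foxj1 had 14.98 CPM per kb in Qk-KO cultures, above 85.0% of the genes tested, and 31.57 CPM per kb in WT cultures, above 93.6%. The 35 axonemal members (dyneins, spokes, Drc, tektins, Ccdc39 and Ccdc40) had a median level of 0.775% of the Foxj1 level in Qk-KO cultures and 0.701% in WT cultures. None was above 7.31% in Qk-KO cultures or 8.74% in WT cultures. In callosum the same median was 15.23% of the Foxj1 level in Qk-KO tissue and 18.01% in WT tissue, and 1 of the 35 was above Foxj1 in each genotype, Drc1 (104.0% of Foxj1) in Qk-KO tissue and Rsph9 (110.7%) in WT tissue. The ependymal marker Tmem212 had no reads in culture, and Ccdc153 and Mcidas had mean normalized counts of 16.6 and 2.96 there. In callosum Tmem212 and Ccdc153 had mean normalized counts of 61.96 and 108.

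Related genes outside the 74 were counted from lists, beside all genes tested in culture, of which 15.2% fell and 13.3% rose. Of 39 tested central pair, spoke and other axonemal genes, 14 fell and 0 rose in culture, with a median log2 change of -0.74. The authors' deposited table gives -1.63 ± 0.21 for Ttc12, a dynein assembly gene, -1.36 ± 0.19 for Efcab2, of the regulatory complex, and -1.78 ± 0.29 for Iqub, of the spokes. Dynein assembly and docking genes fell in 5 of 20 cases and rose in 1, with a median of -0.28. In the authors' deposited table Ccdc103 had -1.44 ± 0.26 and Ccdc151 -1.22 ± 0.30, while the light chain gene Dynll2, shared with cytoplasmic dynein, rose by 0.49 ± 0.19. The other regulators of multiciliated cells did not move one way, with 4 of 17 higher and 2 lower (median 0.15). E2f5, a factor for centriole amplification, fell by 1.45 ± 0.19 and the centriole kinase gene Plk4 rose by 0.96 ± 0.23 in the authors' deposited table. Primary cilium, intraflagellar transport and BBSome genes fell in 14 of 63 cases and rose in 2, with a median of -0.13. Mks1, of the transition zone, fell by 1.27 ± 0.20 and the transport gene Ift46 rose by 0.79 ± 0.14 in the authors' deposited table. In callosum 1 gene of these 4 lists was called, Ttc12, which rose by 0.79 ± 0.23 (adjusted p = 0.0232, authors' deposited table), the opposite direction to culture. Of all genes tested in callosum, 2.32% were called.

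**Figure D3:**
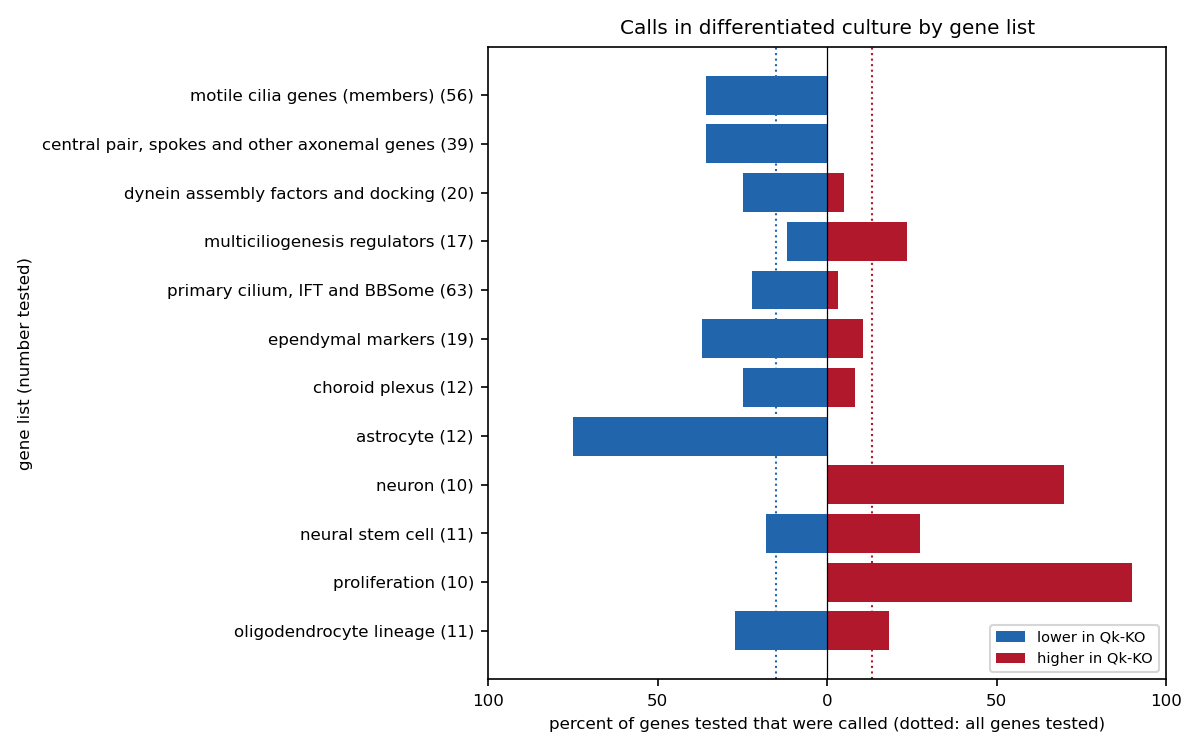
Percent of tested genes called lower (blue, left) and higher (red, right) in Qk-KO cultures for each list, with the number tested in brackets. Dotted lines mark all genes tested, 15.2% lower and 13.3% higher. The motile cilia genes and the central pair list show blue bars only, as does the astrocyte list.

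Markers of other cell types also changed in culture, the astrocyte list downward like the motile cilia genes and the neuron and proliferation lists upward. Of all genes tested in culture, 15.2% fell and 13.3% rose. Of 12 astrocyte markers, 9 fell and 0 rose (median -2.10), and their summed level was 4372 CPM in Qk-KO cultures, against 14441 CPM in WT cultures. Of 10 tested neuron markers 7 rose (summed 1756 CPM in Qk-KO cultures, 748 CPM in WT cultures), as did 9 of 10 proliferation genes (145 CPM in Qk-KO cultures, 62.5 CPM in WT cultures). Of 11 oligodendrocyte lineage markers 2 rose and 3 fell (3806 CPM in Qk-KO cultures, 4473 CPM in WT cultures). Of 11 neural stem cell markers 3 rose and 2 fell (1395 CPM in Qk-KO cultures, 939 CPM in WT cultures). Of 12 tested choroid plexus markers 1 rose and 3 fell (263 CPM in Qk-KO cultures, 349 CPM in WT cultures). Tmem72 (138 CPM in Qk-KO cultures, 136 CPM in WT cultures) and Enpp2 (100 CPM in Qk-KO cultures, 187 CPM in WT cultures) made up most of these sums. The fall of Enpp2 alone exceeded that of the choroid plexus sum. A list of 25 further ependymal markers, several of which other glia express too, had 19 tested, 7 lower and 2 higher. Its median log2 change was -0.49, with 13 of the 19 values below 0. Its summed level was 2342 CPM in Qk-KO cultures, against 1696 CPM in WT cultures, the opposite direction to that median and to the motile cilia genes. Nnat (1097 CPM in Qk-KO cultures, 314.5 CPM in WT cultures) and Vim (622 CPM in Qk-KO cultures, 835 CPM in WT cultures), which other neural cells express too, made up most of that sum. The rise of Nnat alone exceeded that of the sum, while Vim had the lower level in Qk-KO cultures. In the authors' deposited table Pltp had a log2 change of -3.11 ± 0.24, Meig1 -2.89 ± 0.24 and Nnat 1.72 ± 0.18, all called. Krt15 and Sntn had no reads. The part of the cell mixture in the fall of the motile cilia genes was not tested.

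Whether the Qk-KO effect on a gene differed between culture and callosum was tested with a two-sided z test on the deposited changes, adjusted over the 16601 genes tested in both tables. Of 56 members, 12 passed, 11 with the culture value below the callosum value, and 21 had an unadjusted p under 0.05. Of all genes 21.5% passed, 11.7% with culture below and 9.84% with culture above. Tekt1 differed by -2.46 ± 0.52 (adjusted p = 3.60e-05), with -2.39 ± 0.42 in culture and 0.07 ± 0.30 in callosum. Spag1 differed by -1.31 ± 0.23 (adjusted p = 2.18e-07), Drc1 by -1.81 ± 0.48 (0.00155) and Foxj1 by -1.14 ± 0.38 (0.0164). Dnah9 was the 1 member with culture above callosum, at 1.18 ± 0.45 (adjusted p = 0.0454). Of the 20 genes that fell in culture, 11 passed this test and 9 did not, Dnah7b among those 9 (-1.18 ± 0.48, adjusted p = 0.0583). For 17 of the 20, the 95% interval in callosum excluded a fall of 2-fold. Both the test and the intervals rest on deposited changes that appear shrunken at low counts.

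**Figure D4:**
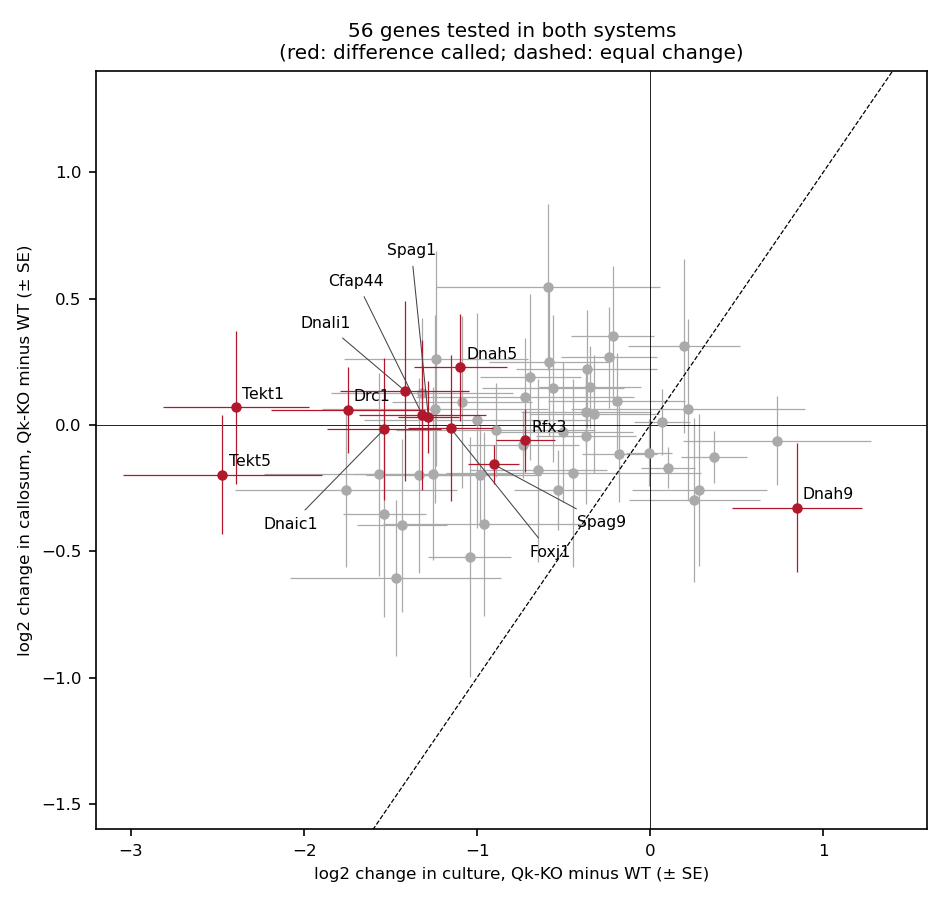
Log2 change in culture (x axis) against log2 change in callosum (y axis), Qk-KO minus WT, for the 56 genes tested in both, with bars of 1 standard error. The 12 genes whose difference passed are red and named. Most points lie left of the dashed line of equal change and near 0 on the callosum axis.

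In callosum no motile cilia gene passed. The authors' deposited table has its lowest adjusted p, 0.568, at Cfap36, which had 71.8 CPM in Qk-KO tissue, against 79.5 CPM in WT tissue (log2 -0.17 ± 0.08). Spag9 had 501 CPM in Qk-KO tissue, against 550 CPM in WT tissue (-0.16 ± 0.08, authors' deposited table). The widest values were Drc7 at -0.61 ± 0.31 and Cfap57 at 0.55 ± 0.33, not called in the authors' deposited table. For 54 of the 66 tested members the 95% interval excluded a 2-fold change in both directions, and for the other 12 it did not. These intervals may be too near 0 at low counts, where the deposited changes appear shrunken. Tmem212 had 3.33 CPM in Qk-KO tissue, against 2.79 CPM in WT tissue, and no p-value. In the same tissue 7 of 9 tested microglia markers rose (summed 707 CPM in Qk-KO callosum, 326 CPM in WT callosum), as did 2 of 12 astrocyte and 3 of 11 oligodendrocyte lineage markers. Of all genes tested there, 2.09% rose. A further 5 members were below the test limit and Spag11a and Spag11b had no reads.

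Many of these genes had larger standard errors in callosum than other genes of like depth. Beside genes with a mean count within 1.2-fold, 50 of 66 members had a standard error above the median and 23 were above 90% of such genes. In culture 44 of 56 were above the median and 6 above 90%. Cfap54, at a mean count of 743 in callosum, had a standard error of 0.475, beside a median of 0.119 for genes of like mean. Foxj1 had 0.289, beside 0.157. Choroid plexus markers shared this, with 15 of 16 above 90% in callosum, and ependymal markers in part, with 7 of 24. Neuron markers had 3 of 11 above 90% in callosum, a share like that of the ependymal markers. Oligodendrocyte lineage markers had 2 of 11 and astrocyte markers 0 of 12. The choroid plexus list had a median log2 change of -0.73 there, 15 of 16 values below 0 and 1 called (Cldn2, -1.04 ± 0.32, adjusted p = 0.0452, authors' deposited table). Its summed level was 3112 CPM in Qk-KO callosum, against 4315 CPM in WT callosum, while that of the ependymal markers was 479 CPM in Qk-KO callosum, against 482 CPM in WT callosum. The part of these markers in the standard errors of the motile cilia genes was not tested.

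**Figure D5:**
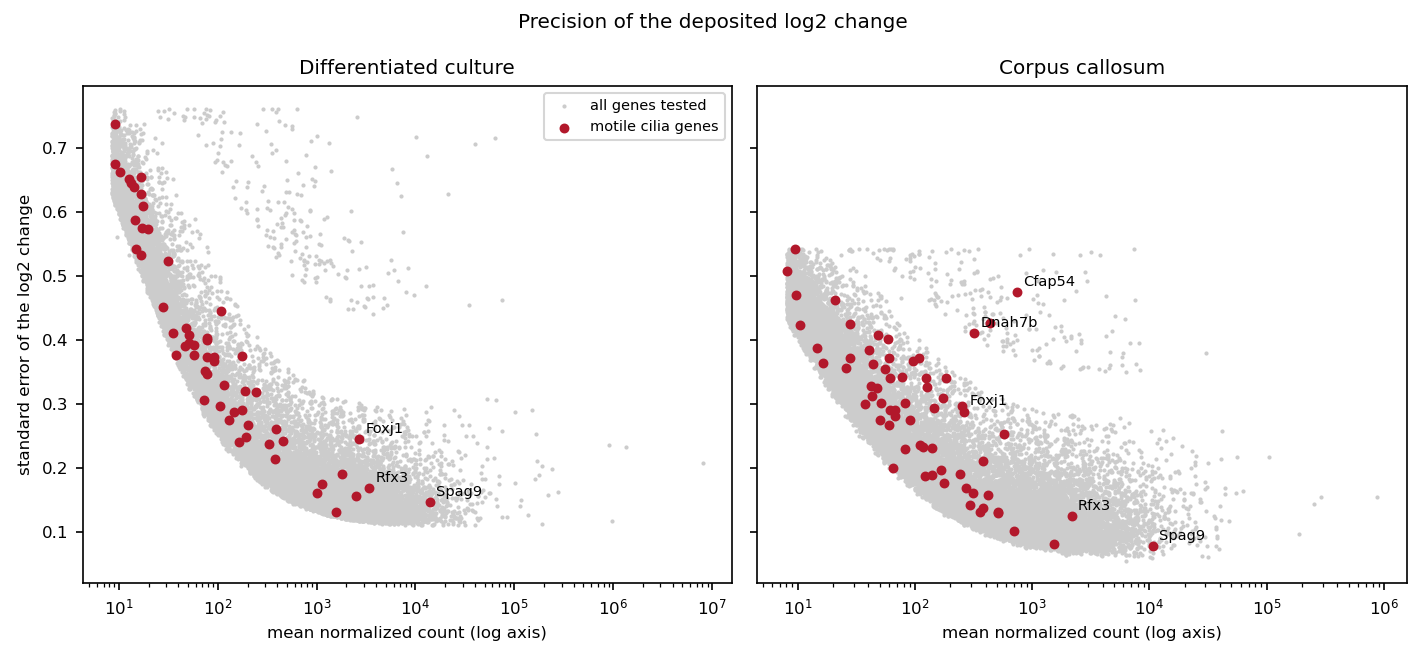
Standard error of the deposited log2 change (y axis) against the mean normalized count (x axis, log scale) in culture (left) and callosum (right), with motile cilia genes in red and all genes tested in grey. In callosum Cfap54 and Dnah7b lie far above most genes of their depth, and Foxj1 is also above its neighbours.

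The calls in culture rest on the authors' normal reference for the score. A Student reference on 4 residual degrees of freedom leaves out the information pooled over genes. With it 0 of all 17503 genes tested passed, and so 0 of the 20 did. Of the 56 members, 17 had an unadjusted p under 0.05 with it, beside 23.9% of all genes tested.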

How the data were processed

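Gene tables of both systems, made by the authors, were read as deposited. Tools listed in the submitters' processing notes are TopHat2 2.0.14, featureCounts, DESeq2 and FastQC, with the build mm10. For the strand setting, annotation and model, nothing is stated in the sources used here. The deposited library columns hold log2 values. Within a genotype they differ by 1 constant factor at every gene (tolerance 1e-09), so they are log2 of fitted means plus 1 and carry no replicate spread. The deposited mean column is a normalized signal, counts divided by size factors. The deposited log2 fold change, its standard error, the score (their quotient), the p-value and the adjusted p-value are the authors', per the file headers, from DESeq2. That fold change is WT over Qk-KO and was turned round. Low-count folds appear shrunken and so understated, since standard errors stay small at near-zero counts (0.299 for Cfap58 at a mean of 0.146 in culture). The z test and the 95% intervals use these folds, and the amount of shrinkage may differ between the 2 systems. The planned count test was not possible, and calls rest on the deposited adjusted p under 0.05. The replicates' p-values measure spread between cultures or animals as labelled.

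Computed here (Python 3.11.15, scipy 1.17.1) were fitted CPM, CPM per kb of GENCODE M21 exon union (46488 identifiers matched), 95% intervals, and the z test between systems, tested on simulated data. Fitted CPM ratios differ from the log2 changes by 0.08 (culture) and 0.02 (callosum), the difference of the 2 scalings. Reads of antisense partners cannot be told apart: Ccdc39 shares 16.9%, Tekt2 20.8%, Dnah3 10.5% and Spag17 9.7% of exon bases with a neighbour on the other strand. Spag6 and Spag6l, Rsph3a and Rsph3b, Spag11a and Spag11b, and the Dnah7 copies are uncertain. Members, lists and naming rules were chosen with earlier results of these data known. Named are the 9 listed genes, all called members, the highest-mean and largest-change genes per role, and for each list the called genes with the smallest p. All 14 library columns were mapped by name. Alternatives tried were another scaling, reference distribution, mean filter, threshold and member set.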

Additional observations from a re-analysis of the deposited data

Results flagged for a closer look

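For 12 of 56 motile cilia genes, beside 21.5% of all genes tested, the Qk-KO effect differed between the systems (z test on the deposited changes, two-sided, adjusted over 16601 genes), which is why they are listed here. That share is near the background, so the count is no result about these genes as a group. The culture minus callosum log2 change was -2.46 for Tekt1, -2.27 for Tekt5, -1.81 for Drc1, -1.55 for Dnali1 and -1.52 for Dnaic1. It was -1.36 for Cfap44, -1.32 for Dnah5, -1.31 for Spag1 and -1.14 for Foxj1. Smaller differences stood at -0.75 for Spag9 and -0.66 for Rfx3. Dnah9 had the opposite sign, 1.18, and neither of its changes passed alone: 0.85 ± 0.37 in culture (adjusted p = 0.0749) and -0.33 ± 0.25 in callosum (adjusted p = 0.960), in the authors' deposited table. The systems also differ in cell mixture, in depth and in how the Qk-KO label was brought about. In callosum the recombinase is largely limited to oligodendrocyte lineage cells, and tissue was taken 4 days after tamoxifen. The cultures are described as 40HT or EtOH. The part of these in the differences was not tested.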

How the results depend on the processing

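Scaling to fitted library totals left 20 members called in culture, with Rsph4a lost and Dnah9 gained (adjusted p = 0.0455), and 13 in the difference between systems. Without the mean filter 19 were called in culture, with a mean of at least 50 there were 16 (Tekt1, Tekt5, Cfap45, Dnah11 and Rsph4a lost, Cfap43 gained), and at an adjusted p under 0.1 there were 27. With a Student reference 0 members passed in culture and 7 in the difference, since by construction its tails are wider and it leaves out what is pooled over genes; 0 of all genes of the culture table passed with it, and 17 of 56 members had an unadjusted p under 0.05, beside 23.9% of all genes tested. In callosum 0 members were called under every alternative run. The member median in culture lay between -0.99 (axonemal members) and -0.58 (every member with a fold change). The single half-site, chosen after seeing the data, was in 24 member promoters, against 0 for the full X-box without a mismatch.

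Leaving out single libraries and a second count tool could not be run, since fitted means hold no replicate spread. No paired analysis was possible because the library columns hold fitted means, although replicate numbers and passages are shared between genotypes in culture. Outlying libraries could not be seen either. Folds of low-count genes such as Tekt5, Cfap45 and Rsph4a may be understated, and nothing is shown of change in the 18 members untested in culture, 7 of which had no reads there.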
